A study of Mus musculus with 8 samples.

Results

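The 10 genes followed here belong to the heat shock and chaperone system and were measured between the chromatin and nucleoplasm fractions of HL1 nuclei: the Hsp70 genes Hspa1a, Hspa1b, Hspa8 and Hspa5, the Hsp90 genes Hsp90aa1, Hsp90ab1 and Hsp90b1, the small heat shock protein gene Hspb1, and the partner genes Hsph1 and Dnajb1. The genes were chosen by name, with earlier results of these data known. Each was measured by the row of the short-read table, assembled on the gene's strand, that best matches the span of the GENCODE M21 gene (overlap over joint span of at least 0.5), and 8 of the 10 had such a row. For Hspa8 and Hsp90aa1 the best overlap was 0.431 and 0.442, the GENCODE genes being longer than the assembled loci, and they were measured by the row on the same strand whose span matches the RefSeq gene. The table holds 65265 rows in all, of which 35826 were above 0 in at least 1 library and were tested.

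HL1 is a mouse cardiac muscle line that derives from an atrial tumour, so it models a dividing cardiomyocyte-like cell and not adult heart tissue. No heat shock, gene change or other treatment separates the groups. All cells were grown in Claycomb medium with 10% serum, 0.1 mM norepinephrine and 30 mM ascorbic acid, and a buffer of NP-40 substitute (0.5%) and urea (0.5 M) split their nuclei into a pellet (chromatin) and a supernatant (nucleoplasm). Each fraction gave 3 short-read libraries, from 3 independent cultures, each made from 100 ng of RNA without ribosomal RNA and read for 50 bp with strand, and polyadenylated chromatin RNA also gave 2 nanopore cDNA libraries (long reads). The p-values below measure the spread between these cultures. Libraries of the fractions with the same replicate number are taken to come from the same culture, which the titles do not state. The number of a culture below is thus the replicate number of its libraries.

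Molecular chaperones bind unfolded proteins and help them to fold, to assemble or to be degraded. Hsp70 proteins work in cycles of ATP hydrolysis that J-domain proteins such as Dnajb1 start and that exchange factors such as Hsph1 reset, and Hsp90 proteins act later, on clients that are nearly folded. Heat shock factor 1 switches on the inducible genes when unfolded proteins build up, while folding stress in the endoplasmic reticulum (ER) acts through a separate response on genes such as Hspa5 and Hsp90b1. Heart muscle cells are rich in small heat shock proteins, which hold damaged contractile proteins in a soluble state.

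All 10 genes had lower counts in chromatin than in nucleoplasm. The log2 fold change of chromatin over nucleoplasm ran from -2.18 for Hspb1 to -1.17 for Hsph1, with a median of -1.67, and the adjusted p was at most 0.00434 (limma, 3 libraries against 3). For none of the 10 did the 3 chromatin and 3 nucleoplasm libraries overlap, and each was lower in all 3 cultures. Over all features tested, 20.9% were called lower and 26.9% higher, with a median of 0.38. All chromatin libraries lay below all nucleoplasm libraries for 23.8% of features and above them for 31.5%. These features include rows with few counts. Among the 23911 with a mean of at least 10, 7637 were called lower and 7914 higher, with a median of 0.05. Most RefSeq accession rows were given no gene type, so the share of coding genes among all features is not known. Among the 10963 assembled loci of coding genes 43.3% were called lower and 25.5% higher. Of these loci 47.6% lay wholly below and 28.8% wholly above, and the median was -0.32. Of the 10, Hspb1 and Hsp90ab1 (2 genes) were lower by more than 4 fold, as were 4.89% of all features and 6.06% of coding loci. Both fractions come from the same nuclei, each library is a mean over all of them, and a normalized count is relative to the other RNAs of its library.

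The scale changed the size of these differences. An equal volume of ERCC standards, synthetic RNAs of known sequence, went into each fraction before extraction, and they took 0.193% to 0.209% of the chromatin counts and 0.297% to 0.339% of the nucleoplasm counts. When libraries were instead brought to one common ERCC sum, all 10 genes still had a negative log2 fold change, from -1.45 to -0.44, but 6 and not 10 were called lower, and the median of all features moved from 0.38 to 0.83. On that scale 8.68% of all features were called lower and 34.8% higher (14.9% and 38.4% of coding loci), so that 20.0% of the calls were lower ones, against 43.7% with the size factors of the authors. Hspa1a, Hspa8, Hspa5 and Hsph1 were the 4 that lost the call, with adjusted p of 0.0598, 0.06005, 0.0892 and 0.162. ERCC scaling divides each library by a single factor, which shifts well-counted features nearly alike. The median of the 10 genes lay below the median of all features on both scales, but the second scale is therefore no separate test of this.

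**Figure D1:**
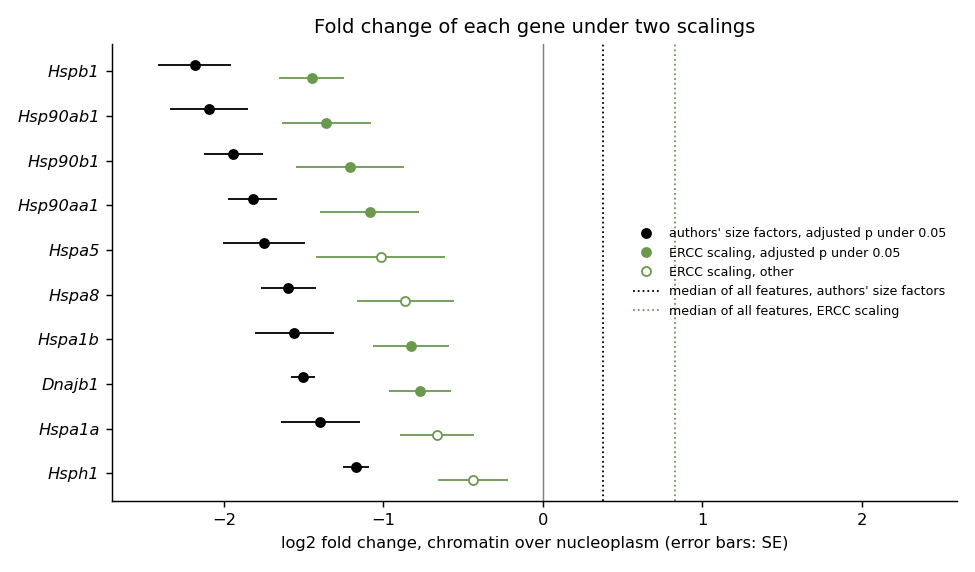
Log2 fold change of chromatin over nucleoplasm for each of the 10 genes, with the authors' size factors (black) and with ERCC scaling (green). Bars are standard errors from limma, open points have an adjusted p of 0.05 or more, and dotted lines mark the median of all features; every point lies left of 0, and the ERCC values are nearer to it, from -1.45 to -0.44.

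Gene counts recovered by undoing the size factors summed to 91657034 to 121773350 per library. They are counts assigned to genes and not the number of reads sequenced. The fractionation controls separated as the fraction names state: the nuclear RNAs Malat1 and Pvt1 were higher in chromatin (log2 fold changes 3.82 and 3.93), and the messenger RNAs Gapdh and B2m lower (-2.07 and -2.67). Of 8 cardiomyocyte markers, 6 had a row and were above 0 in all libraries, while Myh6 and Tnnt2 had none; the sums ran from 1298976 to 2658025 in chromatin and from 259553 to 408479 in nucleoplasm. The 4 fibroblast markers summed to 101764 to 117258 and 212681 to 347926, nearly all of it from the collagen gene Col1a1. Endothelial (4), smooth muscle (2) and immune (3) markers summed to at most 2934, 1191 and 149.9, with Cdh5 and Adgre1 at 0 in all 6 libraries. Both libraries of culture 3 stood apart: in their fractions they had the lowest counts of 5 of the 6 cardiomyocyte markers (Ttn, Ryr2, Nkx2-5, Actc1 and Nppa), the highest of the other, Gata4 (82875 in chromatin and 20977 in nucleoplasm), and the highest of Col1a1. The part of these markers in the differences between fractions was not tested, but with both libraries of culture 3 left out all 10 genes were still called lower, with a median of -1.68.

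Expressed per kilobase of the GENCODE transcript, so that genes can be compared, 5 genes formed an abundant group in both fractions. In chromatin these were Hspa8 with 8545 ± 1848 normalized counts per kb (SD, n = 3), Hsp90ab1 with 8178 ± 2462, Hsp90b1 with 6669.8 ± 195, Hspa5 with 5584 ± 1078 and Hsp90aa1 with 4724 ± 245. No neighbours in that order could be separated beyond their spread. Below them came Hspb1 (1017 ± 275), Hsph1 (531 ± 9.42), Dnajb1 (237 ± 9.0), Hspa1b (84.7 ± 25.1) and Hspa1a (55.1 ± 15.4), each below all libraries of the gene before it except for Hspa1a, which overlapped Hspa1b. In nucleoplasm the same 5 genes led, with Hsp90ab1 first at 33715 ± 1294 and Hsp90aa1 last among them at 16873 ± 3225, again with overlapping neighbours, and the other 5 kept their order with no overlap. The 10 genes took 0.102% ± 0.00792 of the normalized counts in chromatin and 0.358% ± 0.105 in nucleoplasm (n = 3), and 95.7% to 97.3% of that belonged to the 5 abundant genes.

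**Figure D2:**
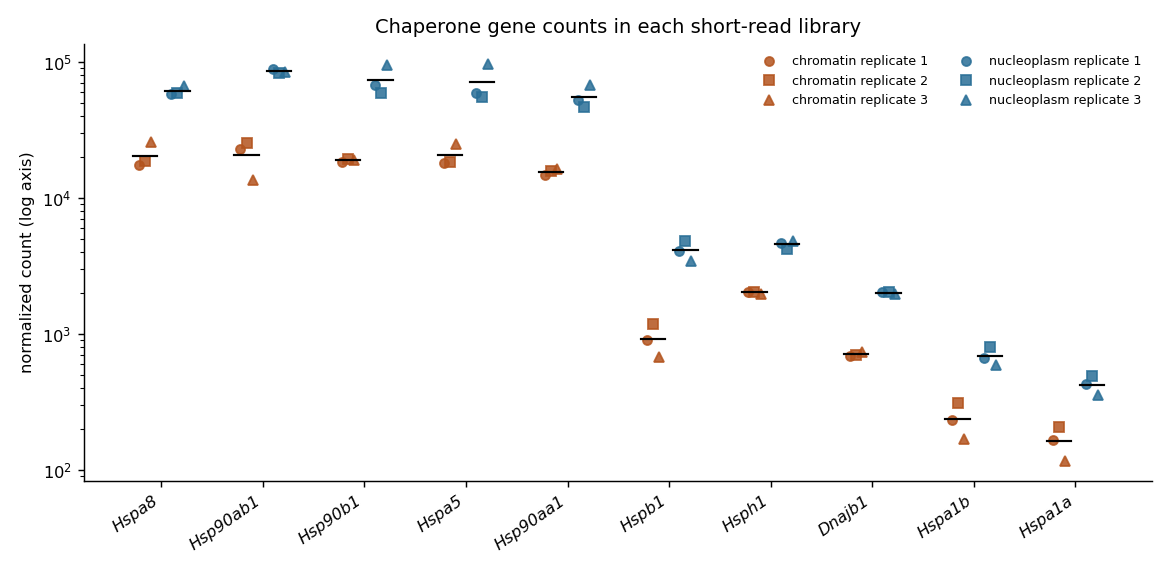
Normalized counts of the 10 genes in each of the 6 short-read libraries on a log axis, ordered by their level per kilobase in chromatin. Symbols mark the replicate and black lines the mean of a fraction; for each gene all 3 nucleoplasm libraries lie above all 3 chromatin libraries, and the triangles of culture 3 depart from the other cultures in opposite directions for different genes.

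Hspa1a and Hspa1b encode the stress-inducible Hsp70 proteins. They are single-exon genes on the minus strand of chromosome 17, Hspa1a at chr17:34969190-34972156 and Hspa1b at chr17:34956436-34959238 (GENCODE M21, mm10). Their coding sequences of 1923 and 1926 bases differ at 8 aligned positions and in a gap of 3 bases, and 82.4% of the 50-base windows of the Hspa1a coding sequence occur unchanged in Hspa1b. The 50 coding bases (1367 to 1416 of each) that hold the most differences among windows without the gap are shown. They are given because, within the coding sequence, reads of this length tell the genes apart only by such bases or the gap. Capitals mark the differences.
Hspa1a: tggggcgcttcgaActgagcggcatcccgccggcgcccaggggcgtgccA
Hspa1b: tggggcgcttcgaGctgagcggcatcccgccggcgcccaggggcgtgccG

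The alikeness goes on before the start of the genes, where 98.8% of 250 bases were identical. These promoters are shown for this likeness, with capitals for GAANNTTC, a pair of inverted units of the heat shock element. Heat shock factor, a trimer, binds longer arrays of such units. RefSeq (GRCm38.p6) gives the first as chr17:34972157-34972406 and the second as chr17:34959239-34959488, both on the minus strand, and the element lies at -104 to -97 in both, counted back from -1, the base before the start.
Hspa1a promoter: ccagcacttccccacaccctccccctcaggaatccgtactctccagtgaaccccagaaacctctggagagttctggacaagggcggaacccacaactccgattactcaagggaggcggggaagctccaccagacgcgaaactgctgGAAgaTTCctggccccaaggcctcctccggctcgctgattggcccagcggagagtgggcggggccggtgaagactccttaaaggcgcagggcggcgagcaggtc
Hspa1b promoter: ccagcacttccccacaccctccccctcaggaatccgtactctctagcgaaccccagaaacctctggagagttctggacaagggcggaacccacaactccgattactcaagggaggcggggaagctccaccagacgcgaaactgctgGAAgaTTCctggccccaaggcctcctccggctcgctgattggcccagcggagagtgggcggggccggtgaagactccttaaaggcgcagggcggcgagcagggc

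Hspa1a had 167, 208 and 117 normalized counts in chromatin replicates 1, 2 and 3, and 431, 487 and 354 in nucleoplasm. For Hspa1b the values were 233, 310.2 and 169.6 in chromatin against 668, 804 and 590.0 in nucleoplasm. Culture 2 was the highest and culture 3 the lowest in both fractions for both genes, and the fractions did not overlap. The log2 fold changes were -1.40 (SE 0.25) and -1.56 (SE 0.25), with adjusted p of 0.00434 and 0.00271 (limma). Hspa1a made up 40.8% ± 0.831 of the counts of the pair in chromatin and 38.2% ± 0.947 in nucleoplasm, the groups did not overlap, and the two-sided exact permutation p was 0.1, the smallest that 3 libraries against 3 allow. Of the 50-base windows of the transcripts, 66.3% for Hspa1a and 62.3% for Hspa1b occur in another GENCODE gene, mostly in each other, so the split of counts between them is uncertain.

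Hspa8 encodes the constitutive Hsp70 protein (Hsc70), which also strips clathrin from vesicles. It was measured at chr9:40801273-40805199 on the plus strand, a locus of 9 exons in the GENCODE transcript. Chromatin libraries held 17339, 18512 and 25519 normalized counts and nucleoplasm libraries 57544, 58994 and 66853. Culture 3 was the highest in both fractions, unlike for the inducible pair, and the fractions were far apart. The log2 fold change was -1.60 (SE 0.17; adjusted p = 0.000537). Of its windows 74.8% occur in other genes, above all in processed pseudogenes such as Gm15459, which makes its count uncertain in the same way.

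Hspa5 encodes BiP, the Hsp70 protein of the ER, which also holds the sensors of unfolded proteins inactive. It lies at chr2:34771970-34777547 on the plus strand, has 9 exons, and shares none of its 3623 windows with another gene. Its counts were 17987, 18460.4 and 25068 in chromatin and 59276, 55376 and 96501 in nucleoplasm. Culture 3 again gave the highest value in each fraction, by a wide margin in nucleoplasm, and the groups did not overlap. The log2 fold change of -1.75 had the widest error of the 10 (SE 0.26; adjusted p = 0.00193).

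Hsp90aa1 and Hsp90ab1 encode the inducible and the constitutive cytosolic Hsp90 proteins. Hsp90aa1 was measured at chr12:110691036-110696395 on the minus strand, and its counts were 14605, 15731 and 16162 in chromatin against 52167, 46743 and 67172 in nucleoplasm. For Hsp90ab1, at chr17:45567775-45573271 on the minus strand, chromatin gave 22720.5, 25482 and 13624 and nucleoplasm 88713, 82796 and 83377. Chromatin replicate 3 was thus the highest for the first gene and by far the lowest for the second, while nucleoplasm replicate 3 was the highest for the first and in the middle for the second. The log2 fold changes were -1.82 (SE 0.15) and -2.09 (SE 0.24), with adjusted p of 0.000200 and 0.000738. Pseudogenes, chiefly Gm12346, share 58.5% of the windows of Hsp90aa1 with it, against 4.49% for Hsp90ab1.

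Hsp90b1 encodes GRP94, the Hsp90 protein of the ER, which folds integrins and Toll-like receptors. Located at chr10:86690209-86705509 on the minus strand with 18 exons, it had 18212, 19236 and 19079 counts in chromatin and 67727, 59373 and 94448 in nucleoplasm. The chromatin libraries lay close together and nucleoplasm replicate 3 stood above replicates 1 and 2, as for Hspa5. The log2 fold change was -1.94 (SE 0.18; adjusted p = 0.000318). The promoters of Hspa5 and Hsp90b1 hold the ER stress element, CCAAT and CCACG with 9 bases of any kind between them, shown with 5 flanking bases because few promoters hold it; capitals mark its fixed letters, and the second site of Hsp90b1 is on the opposite strand.
Hspa5, -65 to -47: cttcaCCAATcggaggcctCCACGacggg
Hsp90b1, -212 to -194: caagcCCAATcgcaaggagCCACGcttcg
Hsp90b1, -107 to -89: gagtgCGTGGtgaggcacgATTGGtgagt

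Hspb1 encodes a small heat shock protein (Hsp25 in the mouse) that protects actin filaments. Its 3 exons lie at chr5:135887919-135889563 on the plus strand. With 903, 1175 and 679 counts in chromatin and 4098, 4827 and 3424 in nucleoplasm, it had the order of cultures seen for Hspa1a and Hspa1b, culture 2 highest and culture 3 lowest. The log2 fold change was the lowest of the 10 at -2.18 (SE 0.23; adjusted p = 0.000483). The pseudogene Hsp25-ps1 holds 503 of its 854 windows. The promoter, at chr5:135887669-135887918 on the plus strand, is shown because it carries 2 copies of GAANNTTC (capitals), at -117 to -110 and -97 to -90.
Hspb1 promoter: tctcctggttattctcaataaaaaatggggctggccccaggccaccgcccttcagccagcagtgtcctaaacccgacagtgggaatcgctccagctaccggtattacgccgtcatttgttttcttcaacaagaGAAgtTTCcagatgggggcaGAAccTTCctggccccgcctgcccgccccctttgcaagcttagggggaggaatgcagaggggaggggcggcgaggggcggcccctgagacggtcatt

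Hsph1 (Hsp110) reloads Hsp70 with ATP, and Dnajb1 (Hsp40) brings it substrates. Hsph1, at chr5:149614287-149636376 on the minus strand with 18 exons, had 2049, 2024 and 1978 counts in chromatin and 4643, 4182 and 4841 in nucleoplasm. Dnajb1, at chr8:83608193-83612653 on the plus strand with 3 exons, had 687, 700.1 and 739 in chromatin and 2038, 2017 and 1973 in nucleoplasm. For both, the libraries of a fraction lay close together, culture 3 included, and the fractions did not overlap. Their log2 fold changes of -1.17 (SE 0.08) and -1.50 (SE 0.08) had the smallest errors of the 10, with adjusted p of 0.000105 and 3.65e-05. None of the windows of Hsph1 and 0.441% of those of Dnajb1 occur in another gene.

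Over the promoter table as a whole, 12.8% of 32851 promoters of 250 bases hold GAANNTTC or its other phase TTCNNGAA, and 0.113% hold the ER stress element on either strand. Promoters were found for 7 of the 10 genes (9 promoters, Hsph1 and Dnajb1 having 2 each). Those of 4 genes, Hspa1a, Hspa1b, Hspb1 and Hsph1, held a 2-unit heat shock element, and those of 2 genes, Hspa5 and Hsp90b1, the ER stress element. The Hsph1 site, at -54 to -47 from the later start, reads aatctTTCtcGAAggctc with its units in capitals. The 3-unit forms, in which a further GAA or TTC follows after any 2 bases so that both 2-unit forms are contained, were in 0.466% of promoters and in none of these 9. The sites are matches of letters only. The promoters of Dnajb1 held neither motif. All 10 genes were lower in chromatin, so a link between either motif and the fraction could not be tested.

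Across the 10 genes the Spearman correlation of the log2 fold change was 0.115 with the transcript span, -0.222 with the number of introns and -0.588 with the mean count, a description over 10 genes that share 6 libraries. The single-exon genes Hspa1a and Hspa1b lay within the range of the spliced genes. Expressed as ratios within a library, which a single factor per library leaves unchanged, 6 pairs of partner genes were compared. In each the libraries of the fractions overlapped. Quantile normalization is not such a factor. With it the log2 fold change of Hspa8 moved from -1.60 to -2.04 and that of Hsph1 from -1.17 to -1.07. The ratios were not computed again on that scale. The two-sided exact permutation p ran from 0.2 to 0.8, with adjusted values of 0.8 for all 6, in a design whose smallest p is 0.1.

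The difference between fractions was largest for Hsph1 to Hspa8. Its log2 ratio was -3.08, -3.19 and -3.69 in chromatin and -3.63, -3.82 and -3.79 in nucleoplasm, a mean difference of 0.42 in which all 3 cultures were higher in chromatin (by 0.55, 0.63 and 0.10). Hsp90aa1 to Hsp90ab1, the inducible against the constitutive gene, was -0.64, -0.70 and 0.25 in chromatin and -0.77, -0.82 and -0.31 in nucleoplasm, so that culture 3 was the highest in both fractions. The means differed by 0.27, and within cultures the ratio was higher in chromatin by 0.13, 0.13 and 0.56. The ratio of Hsp90b1 to Hsp90ab1 had the same shape, with 0.49 and 0.18 in culture 3 against values of -0.32 to -0.48 in the other cultures, and within cultures it was higher in chromatin by 0.070, 0.074 and 0.31. For Hspa1a plus Hspa1b to Hspa8, the inducible against the constitutive Hsp70, culture 3 was the lowest in both fractions (-6.48 and -6.15), and the means differed by 0.10, with differences of 0.27, 0.35 and -0.33 within cultures. Hspa5 to Hspa8 and Dnajb1 to Hspa8 differed by -0.15 and 0.09.

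**Figure D3:**
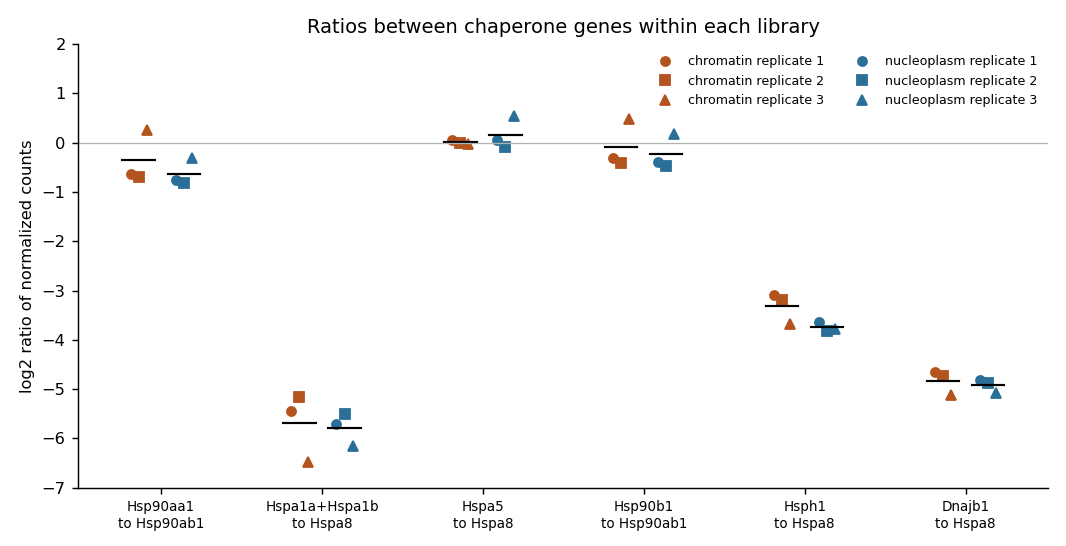
Log2 ratio of normalized counts for 6 pairs of chaperone genes within each short-read library, with black lines at the mean of a fraction. The fractions overlap for every pair, while both triangles (culture 3) lie above the other cultures for both pairs with Hsp90ab1 and below them for the second and the last pair.

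Rows next to the 10 genes were compared as well. Rows on the same strand that start within 10 kb after a gene, and rows on the opposite strand that start within 2 kb before it, were read from the same fit, and 9 were found, of which 3 were called higher, 1 lower and 5 not called, while 26.9% of all features were called higher. A row that starts 109 bp upstream of Hsp90b1 and runs the other way, assigned to Ttc41, had 1092, 993 and 1263 counts in chromatin and 163, 215 and 195 in nucleoplasm, a log2 fold change of 2.54 (SE 0.15; adjusted p = 5.90e-05). An unnamed row of 1476 bp that starts 44 bp upstream of Hsp90ab1 had 64.0, 64.98 and 63.5 in chromatin and 7.07, 10.8 and 5.80 in nucleoplasm (2.91, SE 0.33; adjusted p = 0.000658). For both rows all chromatin libraries lay above all nucleoplasm libraries.

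Between Hspa1a and Hspa1b a row of 422 bp on the same strand, 7294 bp past the end of Hspa1a, had 61.0, 40.9 and 141.5 counts in chromatin and 11.1, 8.39 and 23.2 in nucleoplasm. Its log2 fold change was 2.36 (SE 0.59; adjusted p = 0.0182), and with quantile normalization 1.53 with an adjusted p of 0.0860. The row called lower was Hspa1b itself. Hspa1l, the testis Hsp70 gene, starts 547 bp from Hspa1a on the other strand and did not pass the test (-0.83, adjusted p = 0.119), but was called lower with cultures as pairs (adjusted p = 0.0371) and with quantile normalization (0.0240). The row of 1110038B12Rik after Hspa1b (0.44, adjusted p = 0.0710) was called higher with cultures as pairs (0.0258), with quantile normalization (0.0214) and with ERCC scaling (0.0130). Gm42029 beside Dnajb1, listed at 0 in all nucleoplasm libraries and in chromatin replicate 3, was not called with all libraries (adjusted p = 0.114) and was called without culture 3 (0.00400), and the rows after Hsp90aa1 passed under none of the scalings, the pairing or the fit without culture 3.

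The other genes of the chaperone network were read from 8 lists of 91 genes, of which 84 were measured. Of these 58 were lower in chromatin, 10 higher and 16 not called, with a median log2 fold change of -1.15; with ERCC scaling the counts were 28 lower and 16 higher and the median -0.45. The share of 58 in 84 stands beside 20.9% of all features and 43.3% of coding loci. With a mean of at least 10 required, 59 list genes were lower, beside 7637 of 23911 features.

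All 8 subunits of the cytosolic chaperonin, the ring that folds actin and tubulin, were lower, with a median of -1.50 (3 of 8 with ERCC scaling). Cct7 was the lowest at -2.003 (SE 0.14), followed by Cct5 at -1.55 (SE 0.08) and Cct2 at -1.51 (SE 0.13; adjusted p of 0.0661 with ERCC scaling, which kept the calls of Cct3, Cct5 and Cct7). Mitochondrial chaperones and proteases were lower in 7 of 8 (3 with ERCC scaling), led by Hspe1 (Hsp10) at -2.49 (SE 0.21), its partner Hspd1 (Hsp60) at -1.99 (SE 0.17) and the protease gene Clpp at -1.68 (SE 0.12). Small heat shock proteins were lower in 4 of 6, on both scales. Cryab, the crystallin chaperone of heart muscle, was at -2.47 (SE 0.53), Hspb2 at -1.996 (SE 0.44) and Hspb6 at -1.96 (SE 0.34), and for all 3 culture 3 was the lowest in both fractions, as for Hspb1.

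Among Hsp90 co-chaperones 8 of 12 were lower and 2 higher (5 and 3 with ERCC scaling). Fkbp4, an immunophilin of steroid receptor complexes, was at -2.14 (SE 0.20), Ptges3 (p23) at -1.98 (SE 0.13) and Ahsa1, which speeds up the ATPase of Hsp90, at -1.95 (SE 0.14). Relatives and exchange factors of Hsp70 were lower in 9 of 15 and higher in 1 (4 and 3 with ERCC scaling). Bag1 was at -1.90 (SE 0.12), the ER gene Hyou1 at -1.67 (SE 0.22; adjusted p of 0.0889 with ERCC scaling) and Bag2 at -1.64 (SE 0.14). ER folding and unfolded protein response genes were lower in 9 of 13 and higher in 3 (6 and 3 with ERCC scaling). The lowest were Sdf2l1 at -2.49 (SE 0.26) and the disulfide isomerases P4hb at -2.33 (SE 0.13) and Pdia3 at -2.26 (SE 0.11).

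J-domain proteins were lower in 11 of 17 and higher in 2, with a median of -0.68, which turned to 0.05 with ERCC scaling, where 2 were lower and 4 higher. Dnajc1, an ER membrane protein, rose by 2.24 (SE 0.12), with 16356, 14915 and 17423 counts in chromatin against 3347, 3091 and 3890 in nucleoplasm, and Dnajb6 rose by 1.43 (SE 0.08). Dnajb11, which serves BiP in the ER, fell by 1.87 (SE 0.13). The heat shock factor list was split as well, with 2 of 5 lower and 2 higher (1 and 3 with ERCC scaling). Hsbp1, an inhibitor of heat shock factor 1, was at -2.24 (SE 0.14). Hsf1 itself was at -0.57 (SE 0.11; adjusted p = 0.00661), a direction that turned to 0.16 with ERCC scaling and lost its call with quantile normalization (adjusted p = 0.0513), and Hsf2 was at 1.10 (SE 0.07), with 4132, 3864 and 4048 counts in chromatin and 1932, 1801 and 1875 in nucleoplasm.

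**Figure D4:**
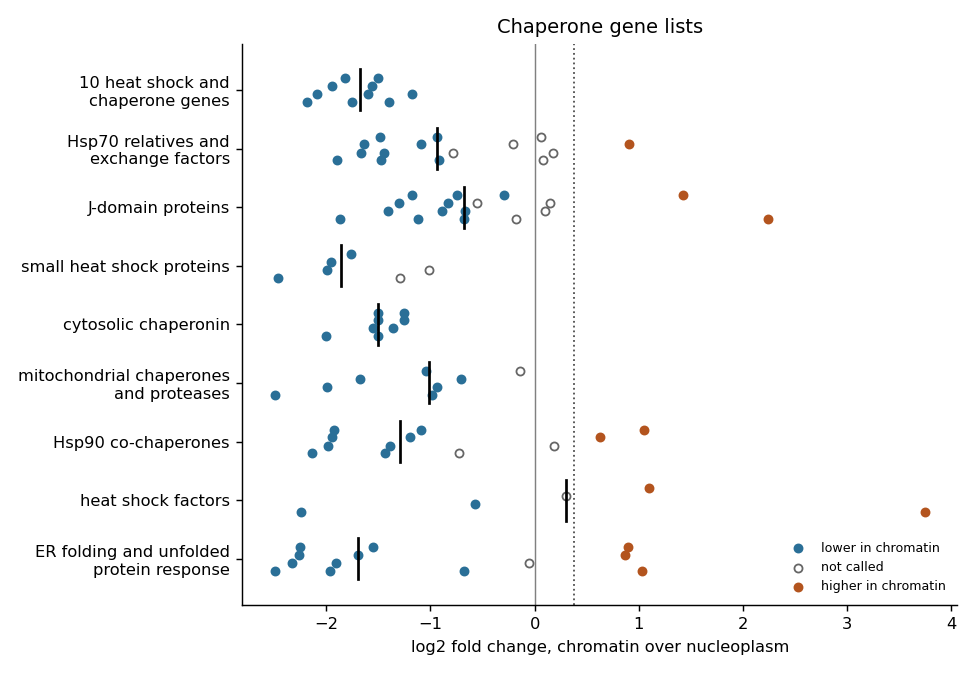
Log2 fold change of chromatin over nucleoplasm for each gene of the 10 chaperone genes and of 8 further lists, with the authors' size factors. Colours mark an adjusted p under 0.05 (limma), black ticks the median of a list and the dotted line the median of all features (0.38); the chaperonin genes and the 10 genes lie wholly left of 0, and the heat shock factors lie on both sides.

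Long reads gave the level in chromatin by a second method, as TPM, which is scaled for length and keeps no depth. Counting transcripts on the gene's strand that lie wholly inside it, the 10 genes summed to 1232 TPM in replicate 1 and 856 in replicate 2, and Hspa1b and Dnajb1 were at 0. For both, the RefSeq model runs a few bases (7 and 18) past the GENCODE gene, so transcripts with at least 50% of their span inside were also counted, which gave 1308 and 1058. By that count Hsp90ab1 had 432 and 255 TPM, Hsp90aa1 234 and 298, Hspa8 239 and 196, Hsp90b1 196 and 172, and Hspa5 93.0 and 100.4. By their means the same 5 genes thus led as in the short reads.

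Lower by their means were Hspb1 with 98.0 and 23.8 TPM, of which the first was above Hspa5 in that library, Hsph1 with 7.23 and 7.64, Dnajb1 with 4.94 and 3.67 and Hspa1b with 1.15 and 1.38. Hspa1a was at 0.837 in replicate 1 and listed at 0 in replicate 2. The Spearman correlation with the short-read level per kb in chromatin was 0.903 over the 10 genes, which share the libraries of each method. Part of the Hspa8 value was listed under the models of 3 small nucleolar RNAs in its introns, Snord14c, Snord14d and Snord14e. Such RNAs guide modification of ribosomal RNA. These models had 14.1, 25.1 and 59.8 TPM in replicate 1 and 20.7, 13.8 and 27.8 in replicate 2. Whether their reads come from the mature small nucleolar RNAs was not tested.

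The long reads were assembled without strand, and transcripts on the opposite strand were found over 5 of the 10 genes. Over Hspa8 they had 669.6 and 464 TPM, more than its own strand in both replicates. Hsp90aa1 had 191 and 204 on the opposite strand, Hsp90ab1 147 and 135, Hsp90b1 97.7 and 45.0, and Hspb1 19.5 and 2.31. Of 8987 coding genes with a mean of at least 10 TPM over both strands, 16.3% had more on the opposite strand in both replicates. With any overlap on either strand counted, the 10 genes had a mean of 2237 TPM.

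**Figure D5:**
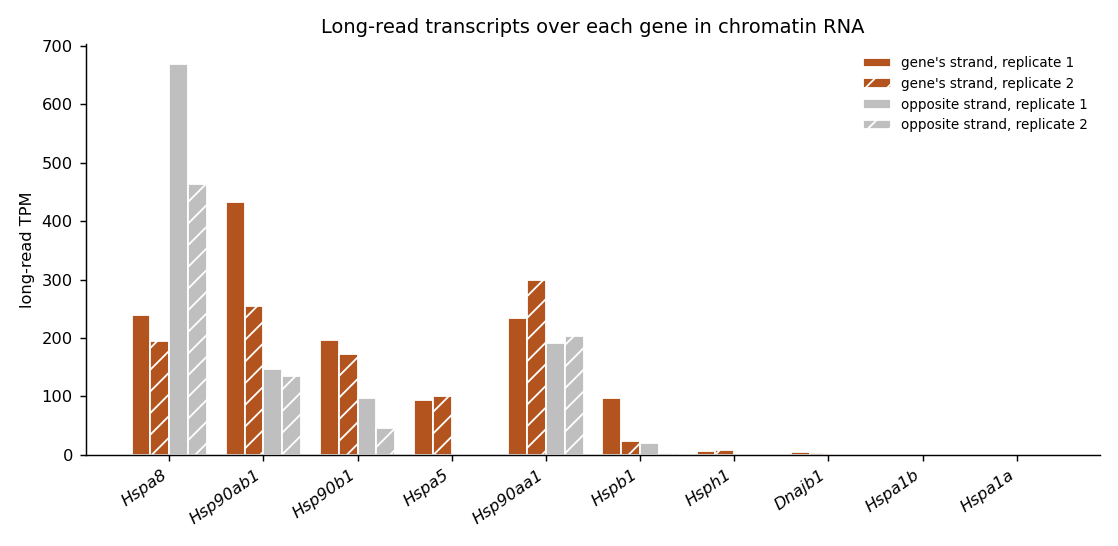
Long-read TPM over each of the 10 genes in the 2 chromatin libraries, for transcripts with at least 50% of their span inside the gene, on the gene's strand (brown) and on the opposite strand (grey), ordered by the short-read level. Hspa8 is the gene with more on the opposite strand in both replicates, and Hspa5, Hsph1, Dnajb1 and the Hspa1 pair show none there.

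Beside the 10 themselves, the genes with the profile most like theirs were Trappc3, Decr2, Itpa, Ahcy and Psmb1. Likeness was the Euclidean distance over 6 libraries between the centred log2 values of a gene and the mean centred profile of the 10, among 12094 named genes with a mean of at least 100 counts. Their distances were 0.0581 to 0.101, and their log2 fold changes lay between -1.70 and -1.67. Distances of the 10 genes to their own mean profile ran from 0.351 for Dnajb1 to 0.824 for Hspb1. The 10 were not picked by distance, so these values cannot be compared with those of the nearest genes.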

How the data were processed

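Short reads of 3 chromatin and 3 nucleoplasm libraries were aligned by the authors with hisat2 2.1.0 to mm10 plus ERCC sequences with strand, assembled and re-estimated with StringTie, and counted per gene with prepDE. The authors deposited normalized counts, each library's counts having been divided by its DESeq2 size factor (a signal without length scaling). Long reads of 2 chromatin libraries were aligned with minimap2 and deposited by the authors as StringTie TPM. How reads with several matches were counted is not given in the sources used here. Libraries were grouped by title; a further label calls all of them chromatin.

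The members and lists were chosen with earlier results of these data known. Log2(normalized count + 1) of features above 0 in at least 1 library was tested in R 4.3.3 by limma 3.58.1 (trended variance prior) with Benjamini-Hochberg adjustment over all features (threshold 0.05). Fold changes are on that scale. Ratios used exact permutation tests (scipy 1.17.1, two-sided). Alternatives changed the pseudocount, filter, trend, scaling, rows and libraries. Every value was a whole multiple of one step per library (100% within 0.01). Counts recovered by this step were also tested with edgeR 4.0.16 and DESeq2 1.42.0, without nucleoplasm replicate 1, whose step lay too near 1 for a check. The limma and edgeR steps were tested on simulated data.

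The titles give each library of the 2 fractions a replicate number and name no culture. Deviations of same-numbered libraries from the fraction means correlated at 0.119, 0.102 and 0.249 over 23911 rows with a mean of at least 10. Those of different numbers correlated at -0.158 to 0.0632. Deviations within a fraction cancel out, so higher values for equal numbers go with lower ones for different numbers. A preparation or run shared by number could give such values as well. That same-numbered libraries come from the same culture is therefore an assumption, which was not tested. The pairing served as an alternative fit, since the methods of the study use no block.

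Windows of 50 bases were compared with all GENCODE M21 transcripts, and promoters are from RefSeq (GRCm38.p6). Genes named from the other lists are the 3 with the largest change among those with an adjusted p under 0.05 and a mean of at least 100. Precision rests on 3 cultures per fraction.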

Additional observations from a re-analysis of the deposited data

How the results depend on the processing

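All 10 genes were called lower with a pseudocount of 0.1, a mean of at least 10, no trend, quantile normalization, rows summed over the gene, and each library left out in turn (10 in every case). Scaling to the ERCC standards changed this, with 6 of the 10 genes lower and, in the other chaperone lists, 28 lower and 16 higher in place of 58 and 10; the cause was not tested. Without single libraries the lists gave 55 to 59 lower and 9 to 10 higher. With the replicate block, which pairs libraries of one culture, 10 of the 10 genes and 60 list genes were lower and 10 higher, and the largest adjusted p of the 10 fell to 0.00197, so it changed no call among the 10. Chosen after seeing the data were the rows of Hspa8 and Hsp90aa1 (8 of 8 lower without them), the fit without both libraries of culture 3 (10 of 10, and 61 and 10 in the lists), the long-read count by 50% of the span and the use of 5 libraries in edgeR and DESeq2 (10 of 10 each). Any overlap on either strand raised the long-read mean from 1044 to 2237 TPM.

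Of the 6 ratios, 4 changed sign without a library: Hsp90aa1 to Hsp90ab1 without chromatin replicate 3 (-0.032; range to 0.44), Hspa1a plus Hspa1b to Hspa8 without chromatin replicate 1 (-0.029) or 2 (-0.17) or nucleoplasm replicate 3 (-0.081; range to 0.49), Hspa5 to Hspa8 without nucleoplasm replicate 3 (0.032; range from -0.28), and Hsp90b1 to Hsp90ab1 without chromatin replicate 3 (-0.13; range to 0.35). These fits leave the other library of that culture in. With libraries paired by number, both ratios to Hsp90ab1 were higher in chromatin in 3 of 3, with an exact p of 0.25 each. They share Hsp90ab1, so they are not separate results. Windows of 100 bases gave shared parts of 56.5% for Hspa1a and 63.4% for Hspa8. Reads of 50 bases limit the separation of Hspa1a from Hspa1b, and 3 libraries per fraction the precision of every fold change.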

Other observations

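In the other chaperone lists 10 genes were higher in chromatin, and 7 of them fall outside the rule for named genes and were singled out after their values were seen. Hsf5, a heat shock factor best known from the testis, had 109.8, 98.5 and 161 normalized counts in chromatin and 6.06, 8.39 and 10.1 in nucleoplasm, a log2 fold change of 3.75 (SE 0.33; adjusted p = 0.000248, limma). Within Hsp90 co-chaperones, Ahsa2 was at 1.05 (SE 0.08) while its relative Ahsa1 was lower, and Chordc1 was at 0.63 (SE 0.09). Among the ER stress genes the higher ones were the transcription factor gene Ddit3 at 1.03 (SE 0.14), the sensor gene Atf6 at 0.90 (SE 0.08) and the sensor gene Ern1 at 0.87 (SE 0.11), and the third sensor gene, Eif2ak3, did not pass the test (-0.05, SE 0.23). Bag3, an exchange factor of Hsp70 in muscle, was at 0.91 (SE 0.23; adjusted p = 0.0175), and its chromatin replicate 3 (11321) stood above replicates 1 and 2 (6821 and 6364). All 10 kept this direction with ERCC scaling and with quantile normalization.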
